A study of Erigeron canadensis with 32 samples.

Results

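The response of horseweed leaves to the synthetic auxin 2,4-D, 6 hours after treatment (HAT), was described across all genes of the draft *Erigeron canadensis* genome. RNA-seq libraries of 4 plants treated with 2,4-D were compared with libraries of 4 plants treated with water, so 8 of the 32 libraries of the series entered the comparison. The other libraries were from plants treated with water, 2,4-D, dicamba or halauxifen-methyl and sampled at 1 or 6 HAT. All plants were 30-day-old rosettes of a glyphosate-resistant biotype, every treatment carried a surfactant, and each library came from 1 leaf of 1 plant. The leaf holds several cell types, and in such bulk libraries fewer cells of a type and less RNA per cell cannot be told apart. Of the 54498 genes in the table, 14299 had enough counts to be tested here. Genes are named after their best hit in *Arabidopsis thaliana*, with the *E. canadensis* gene number, and roles are those known in *A. thaliana*.

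Auxin is a growth hormone that is perceived in the nucleus by the F-box receptors TIR1 and AFB. Auxin joins a receptor to an AUX/IAA repressor, the repressor is degraded, and auxin response factors (ARFs) are then free to act on genes that include the AUX/IAA, GH3 and SAUR families. The AUX/IAA genes so induced encode new repressors, and GH3 enzymes join auxin to amino acids, so both families limit the response. 2,4-D is a chlorinated phenoxyacetic acid that acts at the same receptors, but it is removed more slowly than natural auxin in sensitive broadleaf plants. Such plants respond with twisted growth, with synthesis of ethylene and abscisic acid (ABA), and later with decline of the leaf.

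The 4 water libraries held 16336133 to 20630627 counts and the 4 2,4-D libraries 16664735 to 19185658. The 100 most abundant genes took 38.81 to 48.71% of the counts in water and 32.37 to 37.19% after 2,4-D. One library stood apart from its group. In water replicate 1, 2766 of the 14299 tested genes (19.3%) had 0 counts, against 70 to 383 genes in the other 7 libraries. In that library 164 genes were at 0 although all 3 other water libraries held at least 5 CPM (counts scaled to library size), and in the other 7 libraries 0 or 1 gene did so. On the first principal component, which held 53.2% of the variance, it lay at −213, with the other water libraries at −21.2 to −9.47 and the 2,4-D libraries at 61.2 to 68.4. Of the genes called higher after 2,4-D, 195 were at 0 in it, and 104 of these at 0 only there, whereas no gene called lower was at 0 in it. Counts for gene groups are therefore given with and without water replicate 1. The markers of leaf cell types moved unequally. All 6 tested mesophyll marker genes were lower after 2,4-D (6 of 7 without water replicate 1). The summed level of the mesophyll markers was 20027 to 38554 CPM in water and 8291 to 13476 CPM after 2,4-D. Of the 3 tested guard cell marker genes 1 was higher and 0 lower (1 and 1 without water replicate 1). Guard cell markers summed to 10.3 to 17.1 CPM in water and 103 to 138 CPM after 2,4-D. Nearly all of this came from the potassium channel gene *KAT1*, which had 8.18 to 11.8 CPM in water and 99.7 to 132 CPM after 2,4-D. *SLAC1* had 0 to 6.16 CPM in water and 0.575 to 2.2 CPM after 2,4-D, and *TMM* 0 to 0.833 CPM and 0 to 4.75 CPM. The untested *FAMA* and *EPF1* stayed at or near 0 in both groups. Of the 8 tested vascular marker genes 3 were lower (4 without water replicate 1). The vascular markers had sums of 552 to 1013 CPM in water and 177 to 545 CPM after 2,4-D. Of 5 tested epidermal marker genes 1 was higher (also 1 without water replicate 1), and the sums overlapped (135 to 188 and 148 to 233 CPM). Markers of shoot meristem and root were near 0, with sums of at most 0.46 and 1.87 CPM. The part of cell composition in the results below was not tested.

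At 6 HAT the 2,4-D and water leaves differed widely, in similar numbers of genes in each direction. With edgeR's quasi-likelihood test and a Benjamini-Hochberg adjusted p of at most 0.05, 1471 of 14299 genes were higher after 2,4-D (10.3%) and 1346 were lower (9.41%). Without water replicate 1, 1973 of 14894 tested genes were higher (13.2%) and 1856 lower (12.5%), and 1458 of the 1471 and 1311 of the 1346 genes kept their call. Changes of at least 8-fold were mostly increases, in counts that include water replicate 1. At least 2-fold differences were found for 930 genes called higher and 835 called lower, and at least 8-fold differences for 306 and 113. The median log2 fold change was 1.33 among genes called higher, −1.22 among genes called lower and 0.02 over all tested genes. All 4 2,4-D libraries lay above all 4 water libraries for 2070 tested genes (14.5%) and below them for 1724 (12.1%), and this was so for 1425 of the genes called higher and 1238 of the genes called lower. Of the 110 tested genes with a mean of at least 1000 CPM over both groups, 54 were lower and 20 higher. Another scaling of the libraries (upper quartile) moved the median log2 fold change of all genes by −0.10 and the share of calls that were higher from 52.2 to 42.7%, with 1236 genes higher and 1657 lower.

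**Figure D1:**
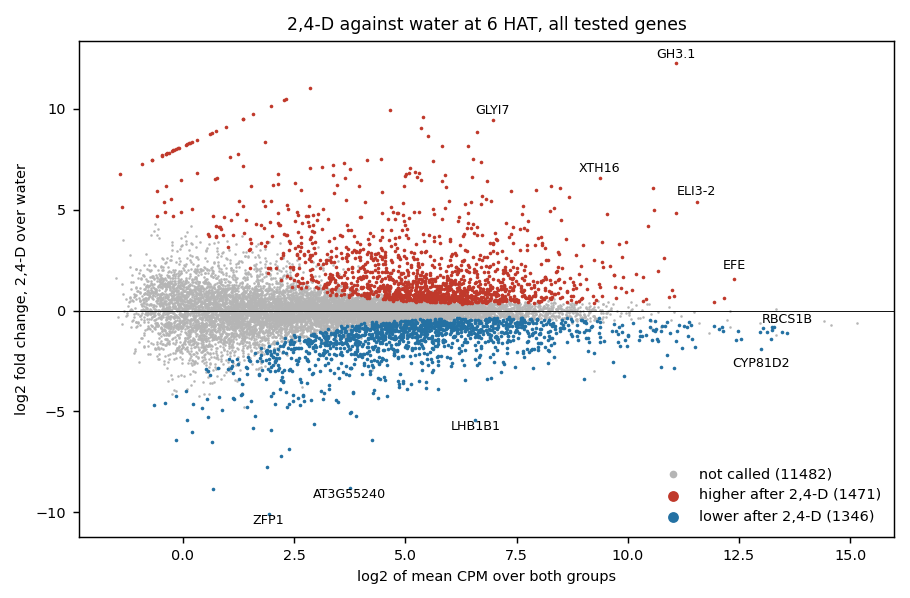
Log2 fold change of each of the 14299 tested genes (2,4-D over water at 6 HAT, vertical axis) against the log2 of its mean CPM over both groups (horizontal axis). Red points are the 1471 genes called higher and blue points the 1346 called lower, and 54 of the 110 genes of at least 1000 CPM on the right are blue and 20 red, while the largest changes at the top are red. The straight row of points at the upper left holds genes with 0 counts in all 4 water libraries.

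Gene groups defined by their annotation did not share equally in these changes. Higher calls reached at least 3 times the background of 10.3% in 11 of 52 groups, which were the AUX/IAA repressors (92.3%), xyloglucan endotransglucosylases (71.4%), salicylate and defence genes (54.5%), GH3 enzymes (54.5%), SAUR genes (53.6%), chlorophyll breakdown (44.4%), ethylene signalling (42.1%), ABA signalling and response (37.8%), UDP-glycosyltransferases (37.6%), MATE efflux genes (36.0%) and phenylpropanoid and lignin synthesis (35.9%). Lower calls reached at least 3 times the background of 9.41% in 13 groups, which were the light-harvesting antenna (70.8%), photosystem cores (68.8%), photorespiration (54.5%), electron transport (53.8%), the Calvin cycle (47.8%), aquaporins (46.7%), expansins (40.0%), ethylene synthesis (37.5%), auxin transport (33.3%), auxin synthesis and turnover (33.3%), cytokinin genes (33.3%), pectin-modifying enzymes (30.4%) and chlorophyll synthesis (6 of 20 genes). Several of these groups hold about 10 tested genes, so that 1 gene moves their percent widely. Cytosolic ribosomal proteins and proteasome subunits, which all cells use, had few calls in either direction.

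**Figure D2:**
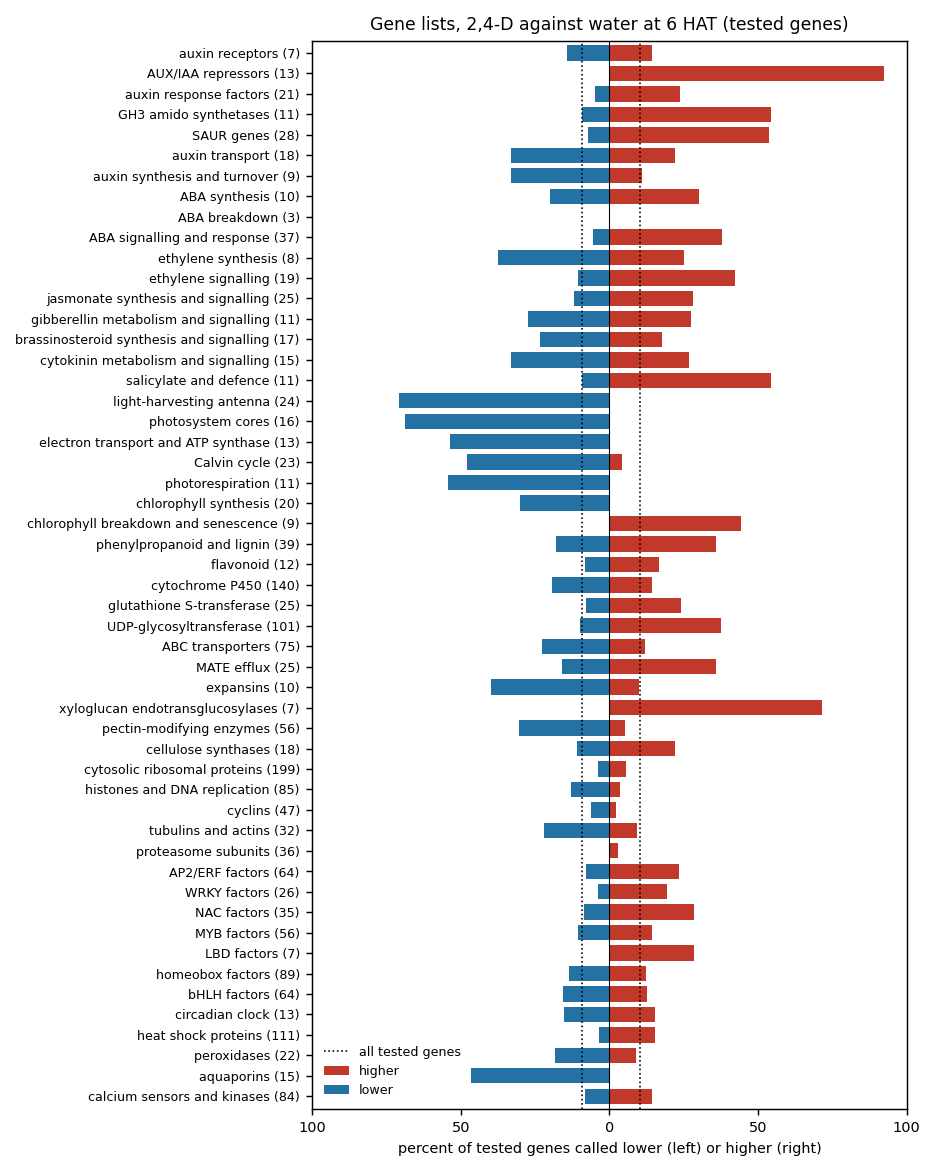
Percent of the tested genes of each annotated group that were called lower (blue, to the left) or higher (red, to the right) after 2,4-D at 6 HAT, with the number of tested genes in parentheses and dotted lines at the percent over all tested genes. The AUX/IAA bar reaches 12 of 13 genes to the right and the antenna bar 17 of 24 genes to the left.

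The AUX/IAA repressor genes were up-regulated almost as a family. Levels below are given in library order, replicates 1 to 4, and values after ± are SDs over the 4 libraries of a group. Of the AUX/IAA repressors, 12 of 13 tested genes were higher and 0 lower (13 and 0 of 14, with a median of 2.93, without water replicate 1), with a median log2 fold change of 2.32, and 0 lower with DESeq2 and 0 by edgeR with unadjusted p under 0.05. The gene with the smallest p was *ATAUX2-11* (HW_4976_g), whose levels were 195, 161, 168 and 152 CPM in water and 1994, 1723, 1749 and 1795 CPM after 2,4-D (log2 fold change 3.43, SE 0.14, edgeR adjusted p = 6.77e-08). The 2 groups were far apart, and the lowest 2,4-D library was several times the highest water library. *SHY2* (HW_18168_g), which encodes the repressor IAA3, rose from 175 ± 30.8 to 817 ± 73.6 CPM (log2 fold change 2.23, SE 0.15). A pair of further members was named after the values were seen. *IAA29* (HW_50873_g) had levels of 38.8, 9.34, 13.5 and 14.8 CPM in water and 397, 378, 377 and 509.8 CPM after 2,4-D (log2 fold change 4.44, SE 0.41, edgeR adjusted p = 1.68e-05), and IAA13 (HW_27084_g) had 0, 2.76, 4.74 and 5.16 CPM in water and 56.9, 67.4, 58.4 and 60.3 CPM after 2,4-D (log2 fold change 4.26, SE 0.67, edgeR adjusted p = 0.000851). Neither pair of groups overlapped. The member not called was IAA7 (HW_30812_g), with 158 ± 31.4 CPM in water and 188 ± 17.3 CPM after 2,4-D (log2 fold change 0.26, SE 0.15, edgeR adjusted p = 0.307).

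The GH3 family held the largest change of all genes. Of its members, 6 of 11 tested genes were higher and 1 lower (6 and 2 of 12, with a median of 1.57, without water replicate 1), with a median log2 fold change of 3.53. The median is −0.626 when only genes with 10 counts in every library are tested. *GH3.1* (HW_8261_g), an enzyme family member whose relatives conjugate auxin to amino acids, had 1.24, 1.74, 0.325 and 0.167 CPM in water and 5008, 4546, 4172 and 3646 CPM after 2,4-D. It was thus close to the detection limit in water and among the abundant transcripts after 2,4-D (log2 fold change 12.26, SE 0.53, edgeR adjusted p = 1.31e-07). Its coding sequence lies at 6854 to 8970 on its contig of the draft genome, in 3 exons. A 2nd gene with the same best hit, HW_16576_g, had 0 counts in all 4 water libraries and 15.7, 9.51, 10.4 and 3.098 CPM after 2,4-D, which is at least 54.7-fold higher at a floor of 3 counts per library (edgeR adjusted p = 0.000228). *DFL1* (HW_43852_g), which acts on auxin, had 0, 0.956, 0 and 1.33 CPM in water and 199.5, 183, 97.1 and 199.5 CPM after 2,4-D (log2 fold change 8.14, SE 0.66, edgeR adjusted p = 6.83e-06). For these 3 genes every 2,4-D library lay above every water library. The member called lower was *JAR1* (HW_2486_g), whose *A. thaliana* namesake joins isoleucine to jasmonate rather than auxin, with a change from 53.7 ± 6.32 to 21.3 ± 2.89 CPM (log2 fold change −1.33, SE 0.16). A 2nd gene with the JAR1 hit, HW_28187_g, had 337 ± 41.8 CPM in water and 353 ± 32.9 CPM after 2,4-D (log2 fold change 0.07, SE 0.13, edgeR adjusted p = 0.801). Reads of genes that share a best hit may have been divided between near-identical copies in the counting, and their separate values are uncertain to that extent.

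Of the SAUR genes, small auxin-induced proteins that promote cell expansion, 15 of 28 tested genes were higher and 2 lower (18 and 2 of 30 without water replicate 1), with a median log2 fold change of 1.9. Both members with the smallest p have the same best hit. AT4G38840 (HW_5327_g) had 13.8, 10.5, 16.1 and 14.3 CPM in water and 215, 192, 162 and 159 CPM after 2,4-D (log2 fold change 3.73, SE 0.17, edgeR adjusted p = 1.73e-07). HW_20620_g rose from 89.3 ± 10.6 to 440.2 ± 50.03 CPM (log2 fold change 2.3, SE 0.14). All of these 2,4-D libraries lay above all water libraries. Of the members that fell, *SAUR36* (HW_15561_g) had the smallest p, with a change from 155 ± 20.8 to 74.9 ± 6.58 CPM (log2 fold change −1.05, SE 0.13).

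Fewer of the receptor and response factor genes were called. Of the auxin receptors, 1 of 7 tested genes were higher and 1 lower (1 and 1 of 7 without water replicate 1), with a median log2 fold change of 0.18. *TIR1* (HW_9710_g) had 78.04, 53.2, 60.6 and 51.2 CPM in water and 99.3, 91.2, 75.1 and 93.5 CPM after 2,4-D, and the groups overlapped (log2 fold change 0.56, SE 0.16, edgeR adjusted p = 0.0277). The call of *TIR1* was kept in 8 of 16 alternative fits (adjusted p up to 0.23 in the edgeR and DESeq2 fits), and it was lost without any 1 of 2,4-D replicates 1, 2 and 4 and water replicates 2, 3 and 4. *AFB4* (HW_51096_g) fell from 17.1 ± 1.94 to 5.56 ± 1.75 CPM (log2 fold change −1.62, SE 0.28). Of the auxin response factors, 5 of 21 tested genes were higher and 1 lower (6 and 1 of 22 without water replicate 1), with a median log2 fold change of 0.34. *ARF19* (HW_54012_g), an activating factor, rose from 35.6 ± 3.06 to 103 ± 14.8 CPM (log2 fold change 1.53, SE 0.14), and *ARF4* (HW_4786_g), a repressing one, from 21.4 ± 5.36 to 55.6 ± 2.47 CPM (log2 fold change 1.38, SE 0.19). *ARF8* (HW_35548_g) fell from 16.4 ± 10.5 to 2.73 ± 1.56 CPM (log2 fold change −2.59, SE 0.52).

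Genes of auxin movement and turnover went in both directions. Of the auxin transport genes, 4 of 18 tested genes were higher and 6 lower (4 and 6 of 18 without water replicate 1), with a median log2 fold change of −0.3. AT2G17500 (HW_27202_g), annotated as an efflux carrier family member, had 0.0591, 16.9, 3.505 and 0.777 CPM in water and 302, 318, 264 and 418 CPM after 2,4-D (log2 fold change 5.93, SE 0.94, edgeR adjusted p = 0.000855). The spread in water was wide, but every 2,4-D library was above it. The influx carrier *AUX1* (HW_42210_g) fell from 232 ± 28.6 to 85.7 ± 11.5 CPM (log2 fold change −1.43, SE 0.14) and the efflux transporter *ABCB1* (HW_4002_g) from 154 ± 14.2 to 39.7 ± 6.82 CPM (log2 fold change −1.95, SE 0.15). Within auxin synthesis and turnover, 1 of 9 tested genes were higher and 3 lower (1 and 3 of 9, with a median of −0.71, without water replicate 1), with a median log2 fold change of −0.29. *UGT84B1* (HW_19271_g), which glucosylates indole-3-acetic acid, rose from 60.4 ± 13.3 to 240.5 ± 23.9 CPM (log2 fold change 1.99, SE 0.17). *ILR1* (HW_26829_g), which releases auxin from amino acid conjugates, fell from 16.4 ± 4.21 to 6.86 ± 1.07 CPM (log2 fold change −1.26, SE 0.27), and AT1G14130 (HW_46454_g), a dioxygenase whose *A. thaliana* namesake oxidises auxin, from 32.6 ± 3.99 to 13.7 ± 7.54 CPM (log2 fold change −1.26, SE 0.33), a call kept in 12 of 16 alternative fits (adjusted p up to 0.0999 in the edgeR and DESeq2 fits) and lost without 2,4-D replicate 3 or 4 or water replicate 3.

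**Figure D3:**
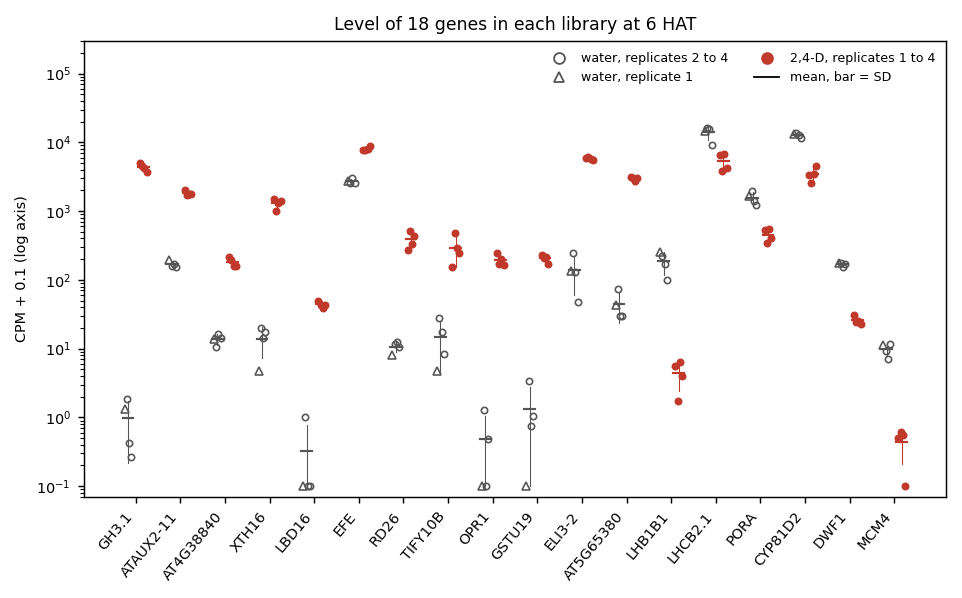
Level of 18 genes in each library at 6 HAT (CPM + 0.1, log axis), with open symbols for water (triangle: replicate 1), filled red symbols for 2,4-D, and the mean with a bar of 1 SD. Water and 2,4-D libraries do not overlap for any of the 18 genes, and *GH3.1* moves from at most 1.74 CPM to at least 3646 CPM while *LHB1B1* and *MCM4* fall by more than 10-fold.

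Cell wall genes split by enzyme class. Of the xyloglucan endotransglucosylases, enzymes that cut and rejoin the xyloglucan tethers between cellulose fibres, 5 of 7 tested genes were higher and 0 lower (5 and 0 of 7, with a median of 2.11, without water replicate 1), with a median log2 fold change of 1.79, and 1 lower with DESeq2 and 0 by edgeR with unadjusted p under 0.05. *XTH16* (HW_19181_g) had 4.61, 19.6, 14.02 and 17.2 CPM in water and 1486, 999, 1322 and 1417 CPM after 2,4-D (log2 fold change 6.56, SE 0.41, edgeR adjusted p = 1.41e-06). Water replicate 1 was the lowest library, and the groups were far apart. *XTH30* (HW_9024_g) rose from 20.96 ± 3.605 to 72.3 ± 14.8 CPM (log2 fold change 1.78, SE 0.19). Of the expansins, which loosen walls, 1 of 10 tested genes were higher and 4 lower (2 and 4 of 11, with a median of −1.07, without water replicate 1), with a median log2 fold change of −1.29. *EXLB1* (HW_47337_g) was the member that rose, with 0, 1.35, 0.3895 and 0.666 CPM in water and 61.4, 58.4, 64.2 and 68.7 CPM after 2,4-D (log2 fold change 6.68, SE 0.54, edgeR adjusted p = 6.67e-06). *EXPB2* (HW_18748_g) had 38.3, 35.9, 36.1 and 40.4 CPM in water and 0.8104, 0.32, 0.632 and 0 CPM after 2,4-D (log2 fold change −6.42, SE 0.54, edgeR adjusted p = 9.52e-06), and *EXPA4* (HW_9988_g) fell from 91.9 ± 11.6 to 19.6 ± 6.47 CPM (log2 fold change −2.23, SE 0.22). Of the pectin-modifying enzymes, 3 of 56 tested genes were higher and 17 lower (6 and 22 of 60, with a median of −0.64, without water replicate 1), with a median log2 fold change of −0.79. AT4G13710 (HW_50247_g) fell from 36.4 ± 3.01 to 6.01 ± 1.67 CPM (log2 fold change −2.6, SE 0.22) and AT4G23820 (HW_24759_g) from 294 ± 52.8 to 70.5 ± 15.9 CPM (log2 fold change −2.06, SE 0.19), both annotated as pectin lyase-like proteins. The member of this group that rose most clearly does not modify pectin, since *PGIP1* (HW_23049_g) inhibits fungal polygalacturonases, and it had 58.5, 52.6, 62.05 and 72.7 CPM in water and 677, 720.1, 685 and 798 CPM after 2,4-D (log2 fold change 3.55, SE 0.14, edgeR adjusted p = 6.77e-08). Of the cellulose synthase family, 4 of 18 tested genes were higher and 2 lower (4 and 2 of 18 without water replicate 1), with a median log2 fold change of −0.12, and the members with the smallest p belong to the cellulose synthase-like branches. *CSLG3* (HW_36849_g) rose from 281 ± 32 to 429 ± 35.2 CPM (log2 fold change 0.61, SE 0.12) and *CSLG2* (HW_12923_g) fell from 35.2 ± 6.82 to 7.08 ± 1.201 CPM (log2 fold change −2.31, SE 0.22). *CSLB06* (HW_25139_g) had 0 counts in all water libraries and 2.32, 2.42, 1.21 and 1.55 CPM after 2,4-D, at least 10.6-fold higher.

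Ethylene genes were called in both directions. Of the genes of ethylene synthesis, 2 of 8 tested genes were higher and 3 lower (2 and 3 of 8 without water replicate 1), with a median log2 fold change of −0.24. The last enzyme of the pathway, ACC oxidase, is listed as the ethylene-forming enzyme EFE. Its gene *EFE* (HW_34088_g) had 2702, 2569, 3012 and 2574 CPM in water and 7663, 7697, 8083 and 8879 CPM after 2,4-D (log2 fold change 1.57, SE 0.13, edgeR adjusted p = 8.14e-06), which was one of the 5 largest gains in CPM of all genes. A 2nd gene with that hit, HW_15637_g, named after its values were seen, fell from 22.1 ± 3.15 to 3.33 ± 2.23 CPM (log2 fold change −2.73, SE 0.47). *ACS6* (HW_42905_g), an ACC synthase also named after its values were seen, had 14, 49.4, 34.99 and 44.7 CPM in water and 112, 65.2, 69.1 and 58.8 CPM after 2,4-D (log2 fold change 1.09, SE 0.34, edgeR adjusted p = 0.0444), and its call was kept in 8 of 16 alternative fits (adjusted p up to 0.14 in the edgeR and DESeq2 fits) and lost without any 1 of the 2,4-D libraries or water replicates 3 and 4. *ACS10* (HW_7316_g) fell from 55.7 ± 14 to 15.6 ± 2.83 CPM (log2 fold change −1.83, SE 0.21), but its *A. thaliana* namesake is an aminotransferase rather than an ACC synthase. AT1G77330 (HW_29455_g), a dioxygenase gene of the ACC oxidase class, fell from 192 ± 35.7 to 76.3 ± 7.54 CPM (log2 fold change −1.33, SE 0.15). Among the genes of ethylene signalling, 8 of 19 tested genes were higher and 2 lower (9 and 1 of 19 without water replicate 1), with a median log2 fold change of 0.53. *ETR2* (HW_40382_g), a receptor gene that is itself induced by ethylene in *A. thaliana*, had 7.68, 13.5, 8.503 and 12.4 CPM in water and 142, 150.0, 124 and 175 CPM after 2,4-D (log2 fold change 3.81, SE 0.21, edgeR adjusted p = 5.68e-07). *EIN2* (HW_28282_g), the central transducer, rose from 75.7 ± 10.6 to 205 ± 5.36 CPM (log2 fold change 1.44, SE 0.12). *ERF1* (HW_28506_g) fell from 7.04 ± 2.81 to 1.09 ± 0.772 CPM (log2 fold change −2.67, SE 0.67), at few counts. This call was kept in 11 of 15 alternative fits (adjusted p up to 0.258 in the edgeR and DESeq2 fits) and lost without 2,4-D replicate 3 or water replicate 3.

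ABA genes were called both in synthesis and in response. Of the genes of ABA synthesis, 3 of 10 tested genes were higher and 2 lower (3 and 2 of 10 without water replicate 1), with a median log2 fold change of 0.07. This median has no stable sign, since it was −0.04 with upper-quartile scaling, −0.93 with DESeq2, −0.945 with no filter on low counts and −0.953 with all 32 libraries in 1 fit. The 9-cis-epoxycarotenoid dioxygenases (NCED), which make the first step committed to ABA, were named after their values were seen. *NCED5* (HW_34273_g) had 0, 0.731, 1.23 and 1.05 CPM in water and 15.2, 11.9, 8.68 and 22.02 CPM after 2,4-D (log2 fold change 4.25, SE 0.76, edgeR adjusted p = 0.00197). *NCED3* (HW_373_g) had 5.61, 24.4, 47.9 and 21.2 CPM in water and 34.6, 32.8, 20.6 and 57.2 CPM after 2,4-D (log2 fold change 0.55, SE 0.5, edgeR adjusted p = 0.542), with the groups overlapping. *NCED4* (HW_13601_g) had 683, 951, 842 and 635 CPM in water and 591, 616, 784 and 850.5 CPM after 2,4-D (log2 fold change −0.13, SE 0.17, edgeR adjusted p = 0.694), again overlapping. Of the later steps, *ABA3* (HW_29530_g) rose from 64.97 ± 7.29 to 139.5 ± 17.9 CPM (log2 fold change 1.1, SE 0.14). The 2 genes with the ABA2 hit went in opposite directions, since HW_5686_g rose from 27.7 ± 6.59 to 61.2 ± 7.29 CPM (log2 fold change 1.14, SE 0.18) and HW_7772_g fell from 108 ± 16.1 to 20.9 ± 2.47 CPM (log2 fold change −2.36, SE 0.15). Of 3 tested genes of ABA breakdown 0 were called by edgeR (1 with DESeq2 and 1 by edgeR at an unadjusted p under 0.05). Among the genes of ABA signalling and response, 14 of 37 tested genes were higher and 2 lower (16 and 2 of 38 without water replicate 1), with a median log2 fold change of 0.41. *RD26* (HW_34355_g), a NAC factor induced by ABA and dehydration, had 8.03, 11.4, 12.4 and 10.4 CPM in water and 275, 510.1, 336 and 440.3 CPM after 2,4-D (log2 fold change 5.21, SE 0.24, edgeR adjusted p = 1.6e-07). *ABF4* (HW_30502_g), a bZIP factor that binds ABA response elements, rose from 179 ± 24.7 to 515 ± 17.1 CPM (log2 fold change 1.52, SE 0.13). *RD22* (HW_52334_g), a dehydration-induced gene, fell from 57.8 ± 19.9 to 16.2 ± 1.84 CPM (log2 fold change −1.83, SE 0.23). The ABA- and drought-induced factor HB-7 (HW_52703_g), named after its values were seen, rose from 38.4 ± 11.4 to 113 ± 18.3 CPM (log2 fold change 1.56, SE 0.21).

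Jasmonate, salicylate and the growth hormones come next. Among the genes of jasmonate synthesis and signalling, 7 of 25 tested genes were higher and 3 lower (8 and 8 of 26 without water replicate 1), with a median log2 fold change of −0.05. *TIFY10B* (HW_42131_g), one of the JAZ repressors, had 4.67, 27.8, 17.2 and 8.33 CPM in water and 151, 482, 293 and 242 CPM after 2,4-D (log2 fold change 4.33, SE 0.54, edgeR adjusted p = 0.000164), and *JAZ6* (HW_3107_g) had 4.84, 14.2, 6.23 and 13.2 CPM in water and 50.8, 154, 138 and 56.04 CPM after 2,4-D (log2 fold change 3.37, SE 0.46, edgeR adjusted p = 0.000319). *LOX2* (HW_41830_g), a lipoxygenase of jasmonate synthesis, fell from 185 ± 28.4 to 78.03 ± 16.9 CPM (log2 fold change −1.24, SE 0.17). The fatty acid hydroxylase gene *CYP94C1* (HW_17233_g), whose product inactivates jasmonoyl-isoleucine, had 0, 0.169, 0 and 0 CPM in water and 50.4, 59.2, 40.4 and 52.99 CPM after 2,4-D. Its water libraries held 3 counts in all, and the ratio of summed counts was 1164 (95% counting interval 398 to 5648, counting error only). Of the salicylate and defence genes, 6 of 11 tested genes were higher and 1 lower (6 and 1 of 12, with a median of 0.88, without water replicate 1), with a median log2 fold change of 0.63, a median that turns to −0.142 with DESeq2 and −0.146 with no filter on low counts. *DMR6* (HW_3260_g), which hydroxylates salicylate, rose from 10.1 ± 1.78 to 77.5 ± 27.1 CPM (log2 fold change 2.94, SE 0.26) and *WRKY33* (HW_29161_g), a defence regulator, from 26.5 ± 8.198 to 178 ± 18.8 CPM (log2 fold change 2.75, SE 0.21). *EDS1* (HW_6346_g), a central regulator of basal resistance, fell from 32.3 ± 7.73 to 10.8 ± 2.46 CPM (log2 fold change −1.58, SE 0.24).

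Of the gibberellin genes, 3 of 11 tested genes were higher and 3 lower (5 and 3 of 12, with a median of 0.37, without water replicate 1), with a median log2 fold change of 0.16. Both genes with the GA3OX1 hit, the enzyme that makes active gibberellin, rose. HW_38092_g had 0, 0.506, 0 and 0.278 CPM in water and 26.98, 19.98, 16.9 and 44.3 CPM after 2,4-D (log2 fold change 7.01, SE 0.74, edgeR adjusted p = 4.64e-05), and HW_32323_g went from 39.9 ± 12.6 to 154 ± 61.4 CPM (log2 fold change 1.95, SE 0.28). The DELLA repressor gene *RGA1* (HW_1378_g) fell from 68.7 ± 13.2 to 28.8 ± 3.25 CPM (log2 fold change −1.25, SE 0.17). Of the brassinosteroid genes, 3 of 17 tested genes were higher and 4 lower (4 and 4 of 18, with a median of −0.04, without water replicate 1), with a median log2 fold change of 0.1, a median that turns to −0.01 with upper-quartile scaling. *DWF1* (HW_21358_g), an enzyme of sterol and brassinosteroid synthesis, had 176, 173, 156 and 172 CPM in water and 30.8, 23.9, 25.3 and 22.96 CPM after 2,4-D (log2 fold change −2.71, SE 0.13, edgeR adjusted p = 2.17e-07), and the final oxidase *BR6OX2* (HW_21474_g) fell from 188 ± 19.5 to 64.2 ± 7.23 CPM (log2 fold change −1.55, SE 0.13). The brassinosteroid-activated factor *BZR1* (HW_17710_g) rose from 139.8 ± 22.2 to 338 ± 25.4 CPM (log2 fold change 1.27, SE 0.14). Of the cytokinin genes, 4 of 15 tested genes were higher and 5 lower (4 and 6 of 18, with a median of 0.0, without water replicate 1), with a median log2 fold change of −0.45. Both genes with the RR5 hit, a response regulator that cytokinin induces, fell. HW_40511_g had 70.2, 77.7, 81.2 and 87.8 CPM in water and 12.2, 11.6, 10.8 and 14.7 CPM after 2,4-D (log2 fold change −2.68, SE 0.15, edgeR adjusted p = 6.05e-07) and HW_46258_g went from 39.7 ± 12.4 to 3.71 ± 1.21 CPM (log2 fold change −3.41, SE 0.3). *LOG3* (HW_13899_g), a cytokinin-activating enzyme, rose from 35.7 ± 2.005 to 92.8 ± 11.4 CPM (log2 fold change 1.38, SE 0.13).

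Genes of the photosynthetic apparatus and of its pigment synthesis were called lower more often than higher in each group examined. Of the light-harvesting antenna genes, which bind chlorophyll and pass on the light energy, 0 of 24 tested genes were higher and 17 lower (0 and 18 of 24 without water replicate 1), with a median log2 fold change of −1.32, and 0 higher with DESeq2 and 0 by edgeR with unadjusted p under 0.05. *LHCA4* (HW_47482_g), of photosystem I, had 4333, 5352, 4582 and 3967 CPM in water and 1429.5, 944, 1596 and 1168 CPM after 2,4-D (log2 fold change −1.83, SE 0.18, edgeR adjusted p = 3.33e-05). *LHCB2.1* (HW_44270_g), of photosystem II, had 14820.4, 16308, 15406 and 9181 CPM in water and 6496, 3816, 6688 and 4214 CPM after 2,4-D (log2 fold change −1.39, SE 0.24, edgeR adjusted p = 0.00162) and was among the 5 largest losses in CPM. *LHB1B1* (HW_4678_g) had the largest relative fall of the antenna, with 254, 223, 169 and 99.2 CPM in water and 5.44, 1.65, 6.27 and 3.93 CPM after 2,4-D (log2 fold change −5.44, SE 0.43, edgeR adjusted p = 5.38e-06). The groups did not overlap for any of the 3 genes, and water replicate 4 was the lowest water library for each. The summed level of the antenna was 173068, 178956, 161714 and 97970.0 CPM in water and 91962, 70589, 105233 and 77502 CPM after 2,4-D, so water replicate 4 lay below 2,4-D replicate 3. It was also the lowest water library for the summed photosystem core, electron transport, Calvin cycle, photorespiration and chlorophyll synthesis genes, which did not overlap with 2,4-D. Without water replicate 4, 20 of the antenna genes were called lower.

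Of the photosystem core genes, 0 of 16 tested genes were higher and 11 lower (0 and 11 of 16 without water replicate 1), with a median log2 fold change of −0.84, and 0 higher with DESeq2 and 0 by edgeR with unadjusted p under 0.05. *PSAE-2* (HW_16037_g) fell from 2199.7 ± 438 to 798 ± 158 CPM (log2 fold change −1.46, SE 0.19). *PSBO2* (HW_34248_g) and *PSBQ-2* (HW_49334_g), of the oxygen-evolving complex, fell from 15221 ± 2617 to 7309.9 ± 1128 CPM (log2 fold change −1.06, SE 0.18) and from 12195 ± 2775 to 5829 ± 865 CPM (log2 fold change −1.06, SE 0.19). Among the genes of electron transport and ATP synthase, 0 of 13 tested genes were higher and 7 lower (0 and 8 of 13 without water replicate 1), with a median log2 fold change of −0.74, and 0 higher with DESeq2 and 0 by edgeR with unadjusted p under 0.05, with *ATPD* (HW_48988_g) falling from 1756 ± 178 to 728 ± 142 CPM (log2 fold change −1.27, SE 0.16) and the ferredoxin gene *FED A* (HW_30946_g) from 844 ± 164 to 282 ± 66.6 CPM (log2 fold change −1.58, SE 0.2). Of the Calvin cycle genes, 1 of 23 tested genes were higher and 11 lower (1 and 15 of 24 without water replicate 1), with a median log2 fold change of −0.93. The aldolase gene *FBA2* (HW_3712_g) fell from 988 ± 238 to 232 ± 36.2 CPM (log2 fold change −2.09, SE 0.2) and *HCEF1* (HW_30799_g), a fructose-1,6-bisphosphatase, from 690.4 ± 98.3 to 249 ± 37.9 CPM (log2 fold change −1.47, SE 0.15). The small Rubisco subunit gene *RBCS1B* (HW_32431_g) had 14252, 25003, 17282 and 10847 CPM in water and 8528, 5164, 9548 and 7743 CPM after 2,4-D (log2 fold change −1.12, SE 0.27, edgeR adjusted p = 0.0117), and was among the 5 largest losses in CPM. The single member that rose was a transketolase gene of low level, HW_14683_g (0, 0, 0.325 and 0.111 CPM in water and 10.8, 14.7, 4.71 and 4.54 CPM after 2,4-D).

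Of the photorespiration genes, 0 of 11 tested genes were higher and 6 lower (0 and 6 of 12 without water replicate 1), with a median log2 fold change of −0.58, and 0 higher with DESeq2 and 0 by edgeR with unadjusted p under 0.05, with the glycine cleavage gene AT1G11860 (HW_47881_g) falling from 2095 ± 340.3 to 1053 ± 161 CPM (log2 fold change −0.99, SE 0.16) and *HPR* (HW_13995_g) from 1074 ± 201 to 540.5 ± 67.01 CPM (log2 fold change −0.99, SE 0.16). Among the genes of chlorophyll synthesis, 0 of 20 tested genes were higher and 6 lower (0 and 8 of 21 without water replicate 1), with a median log2 fold change of −0.58, and 0 higher with DESeq2 and 0 by edgeR with unadjusted p under 0.05. *PORA* (HW_17694_g), which reduces protochlorophyllide in the light, had 1644, 1975, 1424 and 1208 CPM in water and 526, 342, 554 and 403 CPM after 2,4-D (log2 fold change −1.78, SE 0.2, edgeR adjusted p = 7.45e-05), and *GUN4* (HW_36102_g), a regulator of the pathway, fell from 109 ± 18.8 to 53.5 ± 7.29 CPM (log2 fold change −1.02, SE 0.16). Chlorophyll breakdown went the other way. Of its genes, 4 of 9 tested genes were higher and 0 lower (4 and 1 of 9 without water replicate 1), with a median log2 fold change of 0.72, and 0 lower with DESeq2 and 0 by edgeR with unadjusted p under 0.05. *PPH* (HW_14776_g), which removes phytol from pheophytin, rose from 148 ± 25.4 to 244 ± 15.6 CPM (log2 fold change 0.72, SE 0.14) and *NYE1* (HW_51129_g), a magnesium dechelatase of leaf yellowing, from 4.74 ± 1.92 to 14.8 ± 2.42 CPM (log2 fold change 1.64, SE 0.34). Of the antenna, photosystem, electron transport, photorespiration and chlorophyll synthesis genes, 0 were called higher by edgeR, with or without water replicate 1. These falls moved with the mesophyll markers, which include antenna genes, so the markers are no separate measure.

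Enzymes that conjugate small molecules were up-regulated in part. Of the UDP-glycosyltransferases, which attach sugars to hormones, phenolics and foreign compounds, 38 of 101 tested genes were higher and 10 lower (42 and 13 of 103, with a median of 0.5, without water replicate 1, and 6 to 13 lower with 1 library left out), with a median log2 fold change of 0.76. *GT72B1* (HW_2887_g), whose namesake glucosylates chlorophenols, rose from 88.2 ± 11.6 to 506 ± 53.1 CPM (log2 fold change 2.52, SE 0.14). *UGT84A1* (HW_33694_g), which acts on hydroxycinnamates, had 4.49, 4.56, 1.88 and 2.61 CPM in water and 144, 87.1, 102 and 128 CPM after 2,4-D (log2 fold change 5.08, SE 0.3, edgeR adjusted p = 8.37e-07). *UGT72B3* (HW_53424_g) fell from 86.7 ± 15.1 to 11.3 ± 1.55 CPM (log2 fold change −2.94, SE 0.17). *IAGLU* (HW_53177_g), an indole-3-acetate glucosyltransferase named after its values were seen, had 0, 1.01, 1.103 and 0.278 CPM in water and 62.4, 82.4, 62.3 and 63.7 CPM after 2,4-D (log2 fold change 6.82, SE 0.55, edgeR adjusted p = 6.55e-06), with no overlap. Of the glutathione S-transferases, 6 of 25 tested genes were higher and 2 lower (8 and 4 of 26, with a median of 0.19, without water replicate 1), with a median log2 fold change of −0.0, a median whose sign changes to 0.01 with DESeq2 size factors. Both genes with the GSTU19 hit rose from near the detection limit. HW_20212_g had 0, 3.32, 0.649 and 0.944 CPM in water and 226, 208, 217 and 172 CPM after 2,4-D (log2 fold change 7.36, SE 0.63, edgeR adjusted p = 1.04e-05) and HW_34208_g 0, 1.07, 1.36 and 0.111 CPM in water and 74.8, 75.4, 84.4 and 59.96 CPM after 2,4-D (log2 fold change 6.87, SE 0.62, edgeR adjusted p = 1.46e-05). *GSTU25* (HW_12562_g) had 28.2, 15.5, 12.3 and 18.3 CPM in water and 315, 339, 309.6 and 339.8 CPM after 2,4-D (log2 fold change 4.13, SE 0.24, edgeR adjusted p = 7.51e-07), *GSTL3* (HW_44098_g) rose from 257 ± 60.4 to 1613 ± 140.2 CPM (log2 fold change 2.65, SE 0.18), and the microsomal enzyme gene AT1G65820 (HW_45929_g) fell from 119 ± 43.4 to 57.7 ± 8.75 CPM (log2 fold change −1.04, SE 0.24).

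Of the cytochrome P450 genes, 20 of 140 tested genes were higher and 27 lower (26 and 35 of 154 without water replicate 1), with a median log2 fold change of −0.2, so lower calls were the more frequent. *CYP72A7* (HW_6124_g) had 5.55, 3.599, 6.36 and 3.17 CPM in water and 258, 215, 222 and 181 CPM after 2,4-D (log2 fold change 5.55, SE 0.24, edgeR adjusted p = 1.36e-07). *CYP81D2* (HW_5442_g), one of the most abundant genes of the water leaves, had 13374, 13645, 12704 and 11664 CPM in water and 3319.6, 2554, 3491 and 4478 CPM after 2,4-D (log2 fold change −1.89, SE 0.18, edgeR adjusted p = 2.28e-05), and it gave 1 of the 5 largest losses in CPM. *CYP96A10* (HW_5679_g) fell from 81.3 ± 19 to 6.98 ± 1.21 CPM (log2 fold change −3.54, SE 0.22). Of the ABC transporters, 9 of 75 tested genes were higher and 17 lower (15 and 23 of 78 without water replicate 1), with a median log2 fold change of −0.25. *ABCC10* (HW_20830_g) rose from 85.8 ± 6.91 to 487 ± 13.6 CPM (log2 fold change 2.5, SE 0.11) and *ABCG39* (HW_44995_g) fell from 41.5 ± 2.89 to 11.04 ± 0.667 CPM (log2 fold change −1.91, SE 0.15). *ABCC2* (HW_19534_g), a vacuolar pump for glutathione conjugates named after its values were seen, rose from 57.9 ± 18.8 to 235 ± 26.9 CPM (log2 fold change 2.02, SE 0.24). Of the MATE efflux genes, 9 of 25 tested genes were higher and 4 lower (10 and 4 of 26 without water replicate 1), with a median log2 fold change of 0.11. AT5G65380 (HW_35922_g) had 43.1, 72.9, 29.9 and 29.6 CPM in water and 3133, 3055, 2760.2 and 3074 CPM after 2,4-D (log2 fold change 6.1, SE 0.32, edgeR adjusted p = 3.54e-07), one of the 5 largest gains in CPM. AT3G26590 (HW_15989_g) rose from 59 ± 9.79 to 503 ± 28.03 CPM (log2 fold change 3.09, SE 0.14), AT1G71140 (HW_16266_g) from 21.3 ± 4.63 to 244 ± 21.4 CPM (log2 fold change 3.52, SE 0.17), and AT1G73700 (HW_14504_g) fell from 47.4 ± 10.6 to 9.73 ± 2.61 CPM (log2 fold change −2.28, SE 0.25).

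Among the genes of phenylpropanoid and lignin synthesis, 14 of 39 tested genes were higher and 7 lower (15 and 7 of 39 without water replicate 1), with a median log2 fold change of 0.59. *ELI3-2* (HW_1898_g), annotated as a cinnamyl alcohol dehydrogenase, had 136, 245, 132 and 47.4 CPM in water and 5999, 6121, 5778 and 5538 CPM after 2,4-D (log2 fold change 5.38, SE 0.43, edgeR adjusted p = 6.55e-06). Water replicates varied severalfold, and every 2,4-D library was far above them. *CYP98A3* (HW_52615_g), which hydroxylates the ring of lignin precursors, rose from 137 ± 25.2 to 595 ± 34.4 CPM (log2 fold change 2.12, SE 0.15). *CCoAOMT1* (HW_30274_g), which methylates them, fell from 149 ± 12.7 to 13.7 ± 4.84 CPM (log2 fold change −3.45, SE 0.25). Of the flavonoid genes, 2 of 12 tested genes were higher and 1 lower (3 and 2 of 12 without water replicate 1), with a median log2 fold change of −0.29. A gene with the hit to chalcone synthase, HW_45806_g (*TT4*), had 0 counts in water and 4.05, 3.02, 4.197 and 9.13 CPM after 2,4-D, at least 28.8-fold higher (edgeR adjusted p = 0.000611). The laccase gene *TT10* (HW_35739_g) rose from 9.8 ± 0.977 to 62.2 ± 18.1 CPM (log2 fold change 2.67, SE 0.22) and the flavonoid hydroxylase gene *TT7* (HW_3575_g) fell from 62.1 ± 8.76 to 25.9 ± 5.59 CPM (log2 fold change −1.26, SE 0.18).

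The 10 annotated genes with the highest fold changes, among those of at least 5 CPM whose groups did not overlap, included both *GH3.1* genes, *CYP94C1* and *TT4* described above. The 2 genes HW_42782_g and HW_29036_g encode 12-oxophytodienoate reductases with the OPR1 hit, a branch of the enzyme family that is not required for jasmonate synthesis. HW_42782_g had 0, 0.225, 0.1298 and 0.0555 CPM in water and 106, 83.5, 77.8 and 72.02 CPM after 2,4-D (log2 fold change 9.59, SE 0.38, edgeR adjusted p = 6.77e-08) and HW_29036_g 0, 1.18, 0 and 0.389 CPM in water and 242, 172, 201 and 166 CPM after 2,4-D (log2 fold change 8.88, SE 0.59, edgeR adjusted p = 1.86e-06). *GLYI7* (HW_37130_g), of the glyoxalase I family, had 0.473, 0.169, 0.325 and 0.444 CPM in water and 290.5, 234, 147 and 323 CPM after 2,4-D (log2 fold change 9.44, SE 0.36, edgeR adjusted p = 6.77e-08). All 3 went from at most 1.18 CPM in every water library to at least 72.02 CPM in every 2,4-D library. *LHT7* (HW_37571_g), an amino acid transporter gene, had 0, 0.562, 0 and 0 CPM in water and 87.6, 86.3, 67.7 and 85.8 CPM after 2,4-D (log2 fold change 9.06, SE 0.6, edgeR adjusted p = 1.86e-06). AT5G38200 (HW_21402_g), a glutamine amidotransferase-like gene, and AT3G47680 (HW_22524_g), annotated as a DNA-binding protein, had 0 counts in every water library and were at least 82.3- and 33.5-fold higher, with 19.3, 12.4, 5.17 and 21.4 CPM and 4.75, 7.54, 6.96 and 4.42 CPM after 2,4-D. In all, 34 genes were at 0 counts in every water library and at 10 or more counts in every 2,4-D library.

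The 10 lowest included *LHB1B1* and *EXPB2*. *ZFP1* (HW_45617_g), a zinc finger gene, had 4.02, 8.49, 9.996 and 7.88 CPM in water and 0 counts after 2,4-D, at least 46.8-fold lower (edgeR adjusted p = 0.000148). *GDU2* (HW_36827_g), of a family that promotes amino acid export, had 13, 7.82, 5.52 and 3.39 CPM in water and 2 counts over the 4 2,4-D libraries, and the ratio of summed counts was 277 (95% counting interval 76.2 to 2290.2). AT3G55240 (HW_26659_g), of unknown function, had 16.3, 26.04, 31.6 and 33.1 CPM in water and 0.116, 0, 0.115 and 0 CPM after 2,4-D (log2 fold change −8.78, SE 0.6, edgeR adjusted p = 2.11e-06). These 3 genes were at or near 0 in every 2,4-D library. The others were AT5G38790 (HW_8551_g), with log2 fold change −7.22 (SE 1.02), *CYP706A6* (HW_8595_g) with −6.87 (SE 0.77), the thiamine synthesis gene *THI1* (HW_5037_g) with −5.91 (SE 0.9), the patatin-like gene AT1G76980 (HW_47402_g) with −5.81 (SE 1.1) and the transporter gene *ABCG20* (HW_39883_g) with −5.62 (SE 0.57). In only 3 genes were all 2,4-D libraries at 0 and all water libraries at 10 or more counts, and in 11 when water replicate 1 was not counted.

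Gains and losses in CPM, which weigh a gene by its abundance and length, were led by few genes. Summed over genes, the gain of the genes called higher was 152363 CPM, and those called lower together fell by 221329 CPM. The 5 largest gains were those of *ELI3-2*, *EFE*, *GH3.1*, *MGL* (HW_15571_g) and the MATE gene AT5G65380. *MGL*, which breaks down methionine, had 178, 184, 139 and 93.4 CPM in water and 4659, 4134, 4104 and 3903 CPM after 2,4-D (log2 fold change 4.82, SE 0.23, edgeR adjusted p = 2.08e-07). The 5 largest losses were those of *CYP81D2*, *RBCS1B*, *LHCB2.1*, *PSBO2* and *PSBQ-2*. Of the genes without an *A. thaliana* hit, 813 were tested, 66 were higher and 33 lower (12.18% called, against 20.15% of the 13486 genes with a hit). HW_33977_g and HW_46566_g had 0 counts in water and 7.99, 9.78, 6.496 and 7.302 CPM and 13.3, 10.1, 13.2 and 3.37 CPM after 2,4-D, at least 44.6- and 56.5-fold higher. HW_28105_g had 19.2, 18.6, 48.1 and 21.1 CPM in water and 0.637, 0, 3.39 and 2.49 CPM after 2,4-D (log2 fold change −4.05, SE 0.85, edgeR adjusted p = 0.00554), and HW_21530_g 71.1, 93.02, 114 and 122 CPM in water and 5.73, 3.25, 3.97 and 14.4 CPM after 2,4-D (log2 fold change −3.87, SE 0.43, edgeR adjusted p = 7.44e-05).

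Transcription factor families were changed in parts rather than as wholes. Of the AP2/ERF factors, 15 of 64 tested genes were higher and 5 lower (19 and 5 of 70 without water replicate 1, and 3 to 5 lower with 1 library left out), with a median log2 fold change of 0.01, a median that turns to −0.09 with upper-quartile scaling. AT4G13620 (HW_50123_g) had 11.1, 8.32, 8.83 and 7.66 CPM in water and 171, 173, 120.4 and 239 CPM after 2,4-D (log2 fold change 4.29, SE 0.23, edgeR adjusted p = 3.82e-07). *ERF-1* (HW_50164_g), an ethylene response factor, rose from 23.4 ± 7.68 to 229 ± 69.7 CPM (log2 fold change 3.29, SE 0.3), and *RAP2.7* (HW_21475_g), a repressor of flowering, fell from 20.3 ± 4.02 to 3.34 ± 1.201 CPM (log2 fold change −2.6, SE 0.31). The paper lists the RAP2.7 hit both among hormone response genes raised by all its herbicides at this time and among those lowered. Other genes with this hit are not described here. Of the NAC factors, 10 of 35 tested genes were higher and 3 lower (12 and 5 of 37 without water replicate 1), with a median log2 fold change of 0.32, led by *RD26*. *ATAF1* (HW_35806_g), a stress-induced factor, rose from 81.99 ± 19 to 611 ± 102 CPM (log2 fold change 2.9, SE 0.19) and *NAC036* (HW_48874_g) fell from 23.8 ± 8.08 to 3.36 ± 1.62 CPM (log2 fold change −2.83, SE 0.38). Of the WRKY factors, 5 of 26 tested genes were higher and 1 lower (9 and 1 of 26, with a median of 0.6, without water replicate 1), with a median log2 fold change of 0.44. *WRKY58* (HW_39247_g) rose from 37.2 ± 5.61 to 67.8 ± 5.74 CPM (log2 fold change 0.87, SE 0.14) and *WRKY51* (HW_34402_g) fell from 32.8 ± 11.4 to 8.29 ± 4.402 CPM (log2 fold change −1.98, SE 0.39).

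Of the LBD factors, 2 of 7 tested genes were higher and 0 lower (3 and 0 of 7 without water replicate 1), with a median log2 fold change of 0.26, and 0 lower with DESeq2 and 0 by edgeR with unadjusted p under 0.05. *LBD16* (HW_34479_g), a direct target of ARFs in lateral root formation, had 0, 0.8999, 0 and 0 CPM in water and 49.8, 43.3, 38.9 and 43.4 CPM after 2,4-D (log2 fold change 7.52, SE 0.78, edgeR adjusted p = 4.03e-05), and was thus detected in only 1 water library. *LBD37* (HW_2432_g), a nitrogen response factor, rose from 26.3 ± 12.8 to 70.4 ± 8.11 CPM (log2 fold change 1.42, SE 0.3). Of the MYB factors, 8 of 56 tested genes were higher and 6 lower (11 and 8 of 58 without water replicate 1, and 4 to 11 higher with 1 library left out), with a median log2 fold change of 0.19. *MYB73* (HW_27443_g) rose from 10.7 ± 3.19 to 62.4 ± 18.7 CPM (log2 fold change 2.55, SE 0.28), AT1G25550 (HW_10002_g) from 12.99 ± 4.597 to 39.1 ± 5.86 CPM (log2 fold change 1.59, SE 0.26), and *MYB48* (HW_38204_g) fell from 245 ± 27.1 to 68.9 ± 10.6 CPM (log2 fold change −1.83, SE 0.15). Of the homeobox factors, 11 of 89 tested genes were higher and 12 lower (14 and 16 of 92 without water replicate 1), with a median log2 fold change of −0.08. *BLH1* (HW_44951_g) rose from 136 ± 14.2 to 365 ± 47.01 CPM (log2 fold change 1.42, SE 0.13), and *AtHB23* (HW_100_g) and AT2G38090 (HW_15483_g) had log2 fold changes of −2.25 (SE 0.26) and −1.94 (SE 0.26). Of the bHLH factors, 8 of 64 tested genes were higher and 10 lower (9 and 12 of 65, with a median of −0.03, without water replicate 1, and 5 to 9 higher with 1 library left out), with a median log2 fold change of 0.02, a median that turns to −0.08 with upper-quartile scaling. *HEC1* (HW_37462_g) rose from 13.6 ± 2.003 to 64.03 ± 10.3 CPM (log2 fold change 2.24, SE 0.17), and AT1G61660 (HW_32532_g) and *bHLH093* (HW_46271_g) had log2 fold changes of −2.27 (SE 0.24) and −3.08 (SE 0.35). A C2H2 zinc finger gene, AT2G28710 (HW_4824_g), had 0, 0.562, 0 and 0 CPM in water and 25.9, 23.6, 17.5 and 30.04 CPM after 2,4-D (log2 fold change 7.32, SE 0.84, edgeR adjusted p = 8.56e-05).

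Genes of growth and upkeep were called at shares from below to above the background. Of the cytosolic ribosomal protein genes, 11 of 199 tested genes were higher and 8 lower (17 and 12 of 204 without water replicate 1, and 4 to 17 higher with 1 library left out, and 4 to 12 lower with 1 library left out), with a median log2 fold change of 0.02, a median that turns to −0.09 with upper-quartile scaling. The member with the smallest p, AT5G24490 (HW_19118_g), is annotated as a 30S protein and so is not of the cytosolic ribosome, and it had a log2 fold change of 1.82 (SE 0.16). AT4G26060 (HW_38930_g) had 2.17 (SE 0.2) and *RPL23AB* (HW_25442_g) −0.82 (SE 0.12). Of the proteasome genes, 1 of 36 tested genes were higher and 0 lower (6 and 0 of 37 without water replicate 1), with a median log2 fold change of 0.17, and 0 lower with DESeq2 and 0 by edgeR with unadjusted p under 0.05, with AT5G45620 (HW_12553_g) rising from 147 ± 19.5 to 204 ± 15.96 CPM (log2 fold change 0.47, SE 0.13), a call kept in 11 of 16 alternative fits (adjusted p up to 0.0837 in the edgeR and DESeq2 fits) and lost without any 1 of 2,4-D replicates 1, 2 and 3. Of the histone and DNA replication genes, 3 of 85 tested genes were higher and 11 lower (5 and 18 of 94, with a median of 0.02, without water replicate 1), with a median log2 fold change of −0.01, a median that is 0.00 with DESeq2 size factors. *MCM4* (HW_3536_g), of the replicative helicase, had 11.2, 9.28, 7.01 and 11.6 CPM in water and 0.405, 0.503, 0.4599 and 0 CPM after 2,4-D (log2 fold change −4.8, SE 0.75, edgeR adjusted p = 0.00077), and the groups did not overlap. The histone gene AT5G65360 (HW_28984_g) fell from 13.9 ± 3.62 to 2.999 ± 0.906 CPM (log2 fold change −2.21, SE 0.34), and AT4G17080 (HW_30005_g), annotated as a histone methyltransferase, rose from 25.6 ± 4.77 to 115 ± 11.6 CPM (log2 fold change 2.17, SE 0.16). Of the cyclin genes, 1 of 47 tested genes were higher and 3 lower (3 and 5 of 48 without water replicate 1), with a median log2 fold change of −0.15. *CYCP4;1* (HW_49621_g) and *CYCP3;2* (HW_28111_g) had log2 fold changes of 0.96 (SE 0.3) and −2.94 (SE 0.55), and AT1G74940 (HW_2336_g), annotated as a cyclin-dependent kinase, −2.09 (SE 0.23). The call of *CYCP4;1* was kept in 6 of 16 alternative fits (adjusted p up to 0.117 in the edgeR and DESeq2 fits) and stood, among the fits without 1 library, only without water replicate 1. Of the tubulin and actin genes, 3 of 32 tested genes were higher and 7 lower (3 and 8 of 35 without water replicate 1), with a median log2 fold change of −0.1. *ACT7* (HW_3261_g) had a log2 fold change of 0.61 (SE 0.11) and *TUA2* (HW_18103_g) of −0.77 (SE 0.14), while *FTSZ2-2* (HW_9291_g), of −1.54 (SE 0.17), encodes a plastid division protein.

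Of the heat shock genes, 17 of 111 tested genes were higher and 4 lower (28 and 9 of 114 without water replicate 1), with a median log2 fold change of 0.31. *HSP70T-2* (HW_33817_g) had 0, 2.36, 1.62 and 1.11 CPM in water and 107, 101, 112 and 128 CPM after 2,4-D (log2 fold change 6.45, SE 0.55, edgeR adjusted p = 9.93e-06). *HSF4* (HW_51060_g) rose from 62.5 ± 12.7 to 229 ± 29.8 CPM (log2 fold change 1.87, SE 0.17) and *BIP2* (HW_7080_g), a chaperone of the endoplasmic reticulum, fell from 11.3 ± 4.79 to 1.08 ± 0.516 CPM (log2 fold change −3.37, SE 0.53). Of the aquaporins, which let water through membranes, 0 of 15 tested genes were higher and 7 lower (1 and 8 of 16 without water replicate 1), with a median log2 fold change of −0.64, and 0 higher with DESeq2 and 1 by edgeR with unadjusted p under 0.05. *PIP2B* (HW_2182_g) had 408, 393, 469 and 325 CPM in water and 85.3, 82.7, 117 and 132 CPM after 2,4-D (log2 fold change −1.94, SE 0.18, edgeR adjusted p = 2.04e-05), and *PIP2;4* (HW_6580_g) fell from 483 ± 66.7 to 121 ± 37.8 CPM (log2 fold change −2.0, SE 0.21). Of the peroxidases, 2 of 22 tested genes were higher and 4 lower (2 and 5 of 24, with a median of −0.4, without water replicate 1), with a median log2 fold change of −0.19. AT4G37530 (HW_29473_g) had 4.25, 45.3, 13.8 and 2.11 CPM in water and 873, 682, 750.0 and 910.1 CPM after 2,4-D (log2 fold change 5.62, SE 0.8, edgeR adjusted p = 0.000428), while AT1G71695 (HW_24310_g) and *PRXR1* (HW_719_g) had log2 fold changes of −1.38 (SE 0.12) and −1.46 (SE 0.13). Of the calcium sensor and kinase genes, 12 of 84 tested genes were higher and 7 lower (15 and 8 of 90, with a median of −0.05, without water replicate 1, and 2 to 8 lower with 1 library left out), with a median log2 fold change of 0.11. *CBL9* (HW_47767_g), a calcium sensor, had 34.1, 39.99, 36.02 and 43.4 CPM in water and 502, 479.7, 359 and 542 CPM after 2,4-D (log2 fold change 3.62, SE 0.16, edgeR adjusted p = 1.36e-07). *CIPK23* (HW_24585_g), a kinase that works with it, rose from 89.4 ± 9.35 to 209 ± 12.5 CPM (log2 fold change 1.22, SE 0.12) and *CIPK1* (HW_31284_g) fell from 485 ± 75.3 to 160.1 ± 6.23 CPM (log2 fold change −1.6, SE 0.13). Of the clock genes, 2 of 13 tested genes were higher and 2 lower (3 and 3 of 13 without water replicate 1), with a median log2 fold change of −0.04. *GI* (HW_47284_g), *TOC1* (HW_4126_g) and *RVE1* (HW_15600_g) had log2 fold changes of 0.58 (SE 0.11), 1.18 (SE 0.34) and −0.84 (SE 0.16). The call of *TOC1* was kept in 7 of 16 alternative fits (adjusted p up to 0.111 in the edgeR and DESeq2 fits) and stood, among the fits without 1 library, only without water replicate 1. Enzymes of redox metabolism named after their values were seen also rose. The glutaredoxin gene *GRXC1* (HW_32611_g) had 134, 168, 144 and 131 CPM in water and 2446, 3042, 2637 and 2461 CPM after 2,4-D (log2 fold change 4.2, SE 0.15, edgeR adjusted p = 6.77e-08). *GPX6* (HW_39856_g) rose from 98.1 ± 26.01 to 926 ± 51.8 CPM (log2 fold change 3.24, SE 0.19), *ATB2* (HW_41920_g), an oxidoreductase, from 119.7 ± 3.296 to 1252 ± 70.3 CPM (log2 fold change 3.39, SE 0.12) and *SERAT2;1* (HW_20069_g), which makes the cysteine precursor O-acetylserine, from 1.92 ± 0.773 to 54.5 ± 4.49 CPM (log2 fold change 4.82, SE 0.3).

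At 1 HAT far fewer genes were changed. The same test on 4 2,4-D and 4 water libraries of that time called 128 of 14261 genes higher (0.898%) and 131 lower (0.919%), with 1684 at an unadjusted p under 0.05. Of the 13433 genes tested at both times, 126 were higher at 1 HAT, and 109 of these were also higher at 6 HAT and 1 lower. Of the 128 that were lower at 1 HAT, 27 were also lower at 6 HAT and 33 were higher. A test of the difference between the 6 HAT and the 1 HAT effect over 16 libraries called 901 of 15793 genes more positive at 6 HAT (5.71%) and 599 more negative (3.79%). Among the genes higher at 6 HAT, 735 were called more positive and 7 more negative than at 1 HAT, and among those lower at 6 HAT, 526 were called more negative and 1 more positive. The same 6 HAT libraries picked these genes and entered the test of the difference, so this split was in part built in.

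Some genes were already called at 1 HAT. Among the SAUR genes, both AT4G38840 genes were already higher at 1 HAT, HW_5327_g with a log2 fold change of 3.06 (SE 0.4, edgeR adjusted p = 0.00308) and HW_20620_g of 1.73 (SE 0.26, edgeR adjusted p = 0.00689), and the difference between the times was not called for either (edgeR adjusted p = 0.387 and 0.263). Over the whole family 9 of 28 tested SAUR genes were higher at 1 HAT (12 with DESeq2) and 4 were called more positive at 6 HAT. *EXLB1* (1 HAT 7.17 (SE 0.89, edgeR adjusted p = 0.00232)), *GSTL3* (2.64 (SE 0.19, edgeR adjusted p = 7.31e-05)), *ABCC10* (2.63 (SE 0.22, edgeR adjusted p = 0.000177)) and the MATE gene HW_15989_g (2.9 (SE 0.26, edgeR adjusted p = 0.00022)) were likewise high at both times. *ATAUX2-11* stood at 1.04 (SE 0.17, edgeR adjusted p = 0.0125) at 1 HAT and was called more positive at 6 HAT by 2.4 (SE 0.21, edgeR adjusted p = 2.41e-06), and 8 of the AUX/IAA genes were so called. At 1 HAT 3 of 12 tested AUX/IAA genes were higher (7 with DESeq2).

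A 2nd set of genes was called at 6 HAT and not at 1 HAT. *GH3.1* (HW_8261_g) stood at 3.1 (SE 1.01, edgeR adjusted p = 0.221) at 1 HAT, and the difference between the times was 9.21 (SE 1.26, edgeR adjusted p = 0.000102). *XTH16* stood at 1.0 (SE 0.27, edgeR adjusted p = 0.119), *EFE* (HW_34088_g) at −0.43 (SE 0.27, edgeR adjusted p = 0.635) and *RD26* at −0.28 (SE 0.41, edgeR adjusted p = 0.864), and the differences between the times were 5.57 (SE 0.49, edgeR adjusted p = 2.41e-06), 2.01 (SE 0.32, edgeR adjusted p = 0.00044) and 5.51 (SE 0.52, edgeR adjusted p = 3.2e-06). Of the antenna, photosystem core, electron transport and Calvin cycle genes, 0 were called by edgeR at 1 HAT in either direction (0 with DESeq2 and 2 by edgeR at an unadjusted p under 0.05), and 15, 8, 5 and 9 of them were called more negative at 6 HAT than at 1 HAT. *LHCA4*, for example, stood at 0.22 (SE 0.2, edgeR adjusted p = 0.758) at 1 HAT, with a difference of −2.03 (SE 0.29, edgeR adjusted p = 0.000133).

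Some jasmonate genes were called in opposite directions at the 2 times. At 1 HAT 10 of 26 tested genes were lower and 0 higher (0 with DESeq2 and 0 by edgeR at an unadjusted p under 0.05), and 10 were called more positive at 6 HAT than at 1 HAT. Of the 10 that were lower at 1 HAT, 6 were higher at 6 HAT, 2 were lower again and 2 were not called. *TIFY10B* went from −1.96 (SE 0.27, edgeR adjusted p = 0.00445) at 1 HAT to 4.33 at 6 HAT (difference 6.32 (SE 0.64, edgeR adjusted p = 5.63e-06)), and *JAZ6* from −2.0 (SE 0.35, edgeR adjusted p = 0.0176) to 3.37 (difference 5.4 (SE 0.62, edgeR adjusted p = 1.9e-05)). HB-7 did the same, from −2.83 (SE 0.39, edgeR adjusted p = 0.00466) to 1.56. *LOX2* was lower at both times, with −1.43 (SE 0.25, edgeR adjusted p = 0.018) at 1 HAT. *NCED5* was higher at both, with 5.18 (SE 0.39, edgeR adjusted p = 8.95e-05) at 1 HAT. The count of 259 genes at 1 HAT varied from 136 to 352 when single libraries were left out and was 672 with DESeq2.

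**Figure D4:**
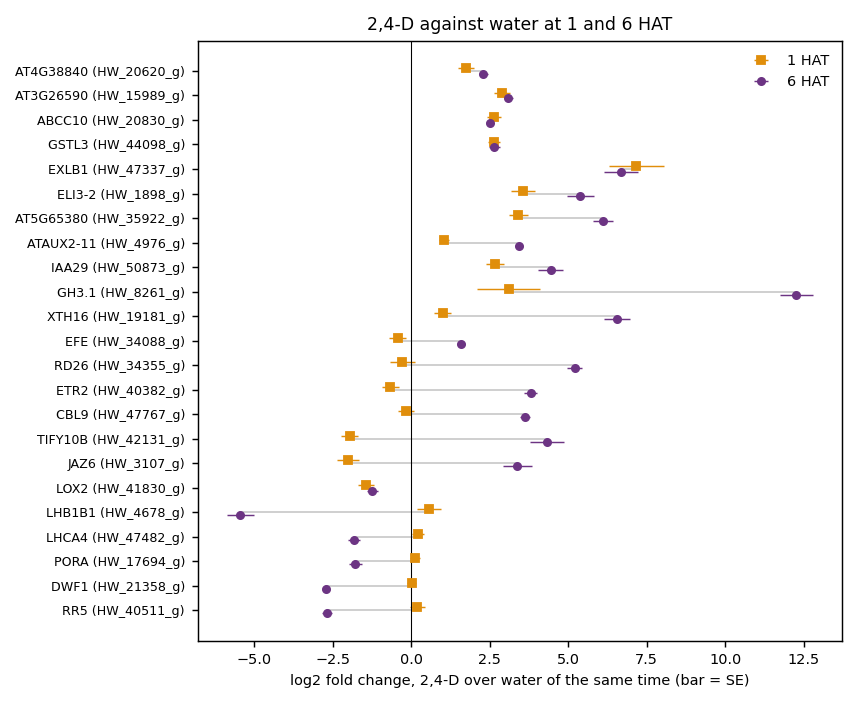
Log2 fold change of 23 genes after 2,4-D over water of the same time, at 1 HAT (orange squares) and 6 HAT (purple circles), with a bar of 1 SE. The upper rows are high at both times, the middle rows rise by 6 HAT, *TIFY10B* and *JAZ6* cross from below 0 to above 0, and the photosynthesis genes lie near 0 at 1 HAT and below 0 at 6 HAT.

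The 2,4-D libraries were also set directly against those of dicamba, a benzoic acid auxin, and of halauxifen-methyl, a picolinate auxin, at 6 HAT. The herbicides were applied at different rates, so compound and rate cannot be told apart. Against dicamba, 60 of 14462 genes were higher after 2,4-D (0.415%) and 15 lower (0.104%), with 1210 at an unadjusted p under 0.05. Of the 60, 56 were also higher after 2,4-D than in water. Single libraries mattered for this count of 75, which was 31 to 158 when 1 library was left out (158 without dicamba replicate 3 and 31 without 2,4-D replicate 3) and 274 with DESeq2. Against halauxifen-methyl, 433 of 14622 genes were higher after 2,4-D (2.96%) and 742 lower (5.07%), with 3004 at an unadjusted p under 0.05. Of the genes higher than water after 2,4-D, 297 were above and 96 below halauxifen-methyl. Of the genes lower than water, 181 were below and 10 above. Another 126 and 428 genes were above and below halauxifen-methyl without a call against water. That count of 1175 was 706 without 2,4-D replicate 3 and 731 without 2,4-D replicate 2. The comparisons with water, dicamba and halauxifen-methyl share the 2,4-D libraries, so the overlap between their calls was in part built in. Where values for all 3 herbicides are given against water, they share the water libraries and are not independent.

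Differences between 2,4-D and the other herbicides are given below for the genes with the largest values and for some named after their values were seen. The OPR1 gene HW_29036_g was above dicamba by 6.3 (SE 0.43, edgeR adjusted p = 6.4e-05) and above halauxifen-methyl by 6.74 (SE 0.3, edgeR adjusted p = 6.29e-07), on the log2 scale. HW_42782_g, the other one, was above them by 5.2 (SE 0.73, edgeR adjusted p = 0.0102) and 6.24 (SE 0.27, edgeR adjusted p = 4.95e-07). The GSTU19 genes HW_34208_g and HW_20212_g were above dicamba by 4.05 (SE 0.38, edgeR adjusted p = 0.000693) and 3.34 (SE 0.42, edgeR adjusted p = 0.00437), and above halauxifen-methyl by 8.0 (SE 0.53, edgeR adjusted p = 1.35e-05) and 6.55 (SE 0.22, edgeR adjusted p = 3.01e-07). Of 23 tested glutathione S-transferase genes, 4 were higher after 2,4-D than after dicamba and 0 lower (1 lower with DESeq2). Over all genes these shares were 0.415 and 0.104%. Against halauxifen-methyl, 6 of 23 were higher and 2 lower, with 2.96 and 5.07% over all genes. *ELI3-2* was above dicamba by 2.51 (SE 0.14, edgeR adjusted p = 1.91e-05) and above halauxifen-methyl by 4.67 (SE 0.3, edgeR adjusted p = 1.26e-05). *LHT7*, the zinc finger gene HW_4824_g and HW_46566_g were above dicamba by 3.78 (SE 0.53, edgeR adjusted p = 0.00956), 5.28 (SE 0.54, edgeR adjusted p = 0.00115) and 9.02 (SE 0.84, edgeR adjusted p = 0.000693).

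Smaller differences in the same direction were found for *GPX6* (above dicamba by 2.38 (SE 0.15, edgeR adjusted p = 3.75e-05)), *GRXC1* (1.96 (SE 0.23, edgeR adjusted p = 0.00246)), *ATB2* (1.68 (SE 0.14, edgeR adjusted p = 0.00054)), *SERAT2;1* (2.14 (SE 0.27, edgeR adjusted p = 0.00437)), *ABCC2* (1.18 (SE 0.17, edgeR adjusted p = 0.0112)), *IAGLU* (1.23 (SE 0.17, edgeR adjusted p = 0.0108)) and *HSP70T-2* (1.99 (SE 0.26, edgeR adjusted p = 0.0067)). All 7 were also called above halauxifen-methyl, by 3.31, 2.68, 3.18, 1.92, 3.48, 3.04 and 4.7 in that order. *EDS1* was below dicamba, with a difference of −2.26 (SE 0.25, edgeR adjusted p = 0.00184), and below halauxifen-methyl, with −3.57 (SE 0.19, edgeR adjusted p = 2.48e-06). The ACC oxidase-like gene AT1G77330 was also below both, with −1.35 (SE 0.15, edgeR adjusted p = 0.00184) and −2.31 (SE 0.21, edgeR adjusted p = 0.00015). *TT4* was below halauxifen-methyl, with −4.965 (SE 0.65, edgeR adjusted p = 0.0012). Several groups held more genes called below halauxifen-methyl than above it. Examples were jasmonate (9 below and 0 above of 26 tested genes) and salicylate and defence (6 and 0 of 13). Phenylpropanoid and lignin genes had 13 below and 4 above of 40. UDP-glycosyltransferases (5 and 17 of 104) and MATE genes (0 and 6 of 25) went the other way. Over all genes 5.07% were below and 2.96% above.

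The auxin response families and photosynthesis were not among the genes called different from dicamba. Of the tested AUX/IAA, GH3, SAUR, ARF, antenna and photosystem core genes, 0 were called by edgeR in that comparison (1 with DESeq2 and 9 by edgeR at an unadjusted p under 0.05). Against halauxifen-methyl 0 of the antenna and photosystem core genes were called (3 with DESeq2 and 3 by edgeR at an unadjusted p under 0.05). *GH3.1* (HW_8261_g) differed from dicamba by 0.64 (SE 0.24, edgeR adjusted p = 0.469), *ATAUX2-11* by 0.07 (SE 0.24, edgeR adjusted p = 0.973), *EFE* (HW_34088_g) by −0.13 (SE 0.15, edgeR adjusted p = 0.9) and *LHCA4* by 0.0 (SE 0.21, edgeR adjusted p = 1). The unadjusted 95% intervals of these differences (t distribution, 6 degrees of freedom) were 0.06 to 1.21, −0.5 to 0.65, −0.5 to 0.24 and −0.5 to 0.51, so the values do not show that the compounds act alike. The SEs were derived from the log2 difference and the F statistic of the edgeR test. That test has its own degrees of freedom, which the intervals did not use, so intervals and p-values need not match. Against halauxifen-methyl some auxin response genes were called, namely 1 of 14 AUX/IAA genes higher and 1 lower after 2,4-D, 1 of 12 GH3 genes higher, 1 of 31 SAUR genes lower and 1 of 22 ARF genes higher. The GH3 gene was *GH3.1* (HW_8261_g), which was above halauxifen-methyl by 0.73 (SE 0.17, edgeR adjusted p = 0.0266), with an unadjusted 95% interval of 0.32 to 1.16.

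**Figure D5:**
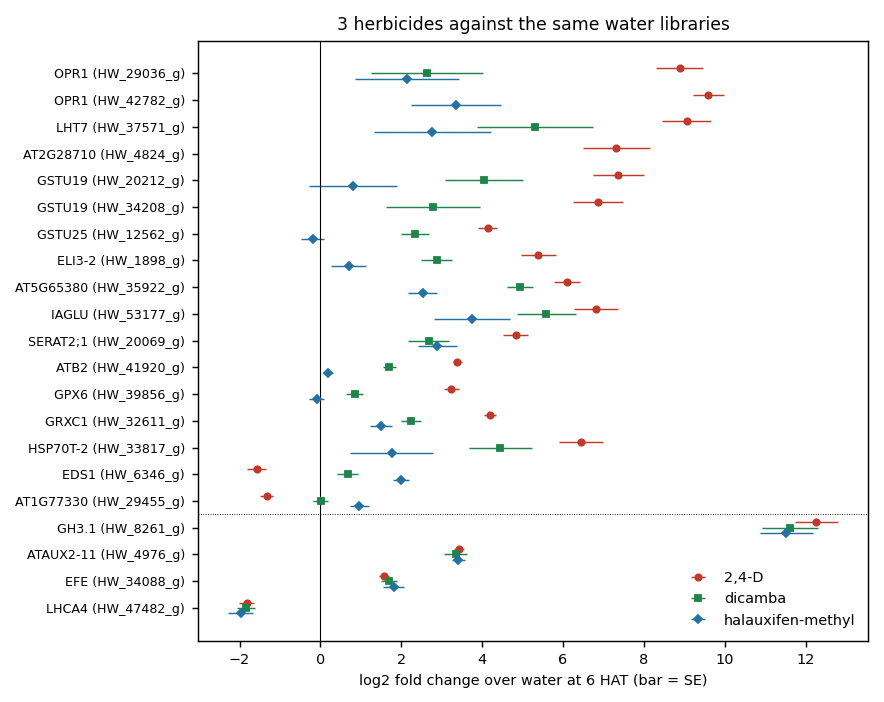
Log2 fold change over the shared water libraries at 6 HAT for 2,4-D (red), dicamba (green) and halauxifen-methyl (blue), with a bar of 1 SE. Points are absent where a gene was too low to be tested for that herbicide. The 17 genes above the dotted line were called different between 2,4-D and dicamba, and the 4 below it were not.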

How the data were processed

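Counts of reads per gene were made and deposited by the authors for 32 leaf libraries, as raw whole numbers. Per the submitters' processing notes and the paper's methods, reads were checked with FastQC 0.11.2, aligned with STAR 2.5.2b to the draft *E. canadensis* genome and counted with HTSeq 0.6.1. The counting mode and strandedness are not given in the sources used here, so genes that overlap or lie antisense to each other are uncertain. Gene models hold coding sequence only. The table names the best *A. thaliana* hit for 38855 of 54498 genes, and 25585 genes were at 0 in all libraries. All sample columns matched a label.

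Genes were filtered with filterByExpr (minimum count 10), scaled by TMM and tested with the quasi-likelihood test of edgeR 4.0.16 in R 4.3.3, with Benjamini-Hochberg adjustment over all tested genes and a threshold of 0.05. Each comparison was fitted on its own groups of 4 plants (16 libraries for the difference between the times). The biological coefficient of variation was 0.4816. CPM values use TMM library sizes. The floor for a group at 0 was 3 counts per library, and intervals of count ratios cover counting error only. Alternatives were DESeq2 1.42.0, the edgeR exact test, other scalings and filters, 1 fit of all 32 libraries, a replicate block and leaving out each library. The fits were tested on simulated data. Tables were made with Python 3.11.15 and pandas 2.3.3.

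Members and lists were chosen with earlier results of these data known. The 52 lists are matches of best-hit loci or of words in the annotation, so some members do not share the list's function. In 7 lists a member had a group at 0, and setting such members to their bound moved 0 of the medians. Named genes are the 10 highest and 10 lowest fold changes among called genes with a hit, groups that do not overlap and at least 5 CPM, the 5 largest gains and losses of CPM, the called members of each list with the smallest p (2 in the direction with more calls, 1 in the other), the 2 highest and 2 lowest genes without a hit, and the 5 largest differences from each other herbicide. Genes named after their values were seen are marked.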

Additional observations from a re-analysis of the deposited data

Results flagged for a closer look

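A library far from the 3 others of its group was found in 22 of 362 groups of 4 libraries examined for the named genes, where the gap to the nearest library was large for the range of the group (Dixon's test at the 95% level). Chance alone gives such a gap in about 1 of 20 groups, and 4 of the 22 were water replicate 1. In water replicate 1 the value was 52.7 CPM for *CYCP4;1*, 118.2 CPM for AT5G45620, 67.76 CPM for AT1G61660 and 26.76 CPM for *EFE* (HW_15637_g). In water replicate 2 the value was 0.1687 CPM for *CYP94C1*, 0.5624 CPM for *LHT7*, 0.8999 CPM for *LBD16* and 0.5624 CPM for AT2G28710. In water replicate 3 the value was 73.54 CPM for AT3G26590, 437.3 CPM for *GI* and 48.1 CPM for HW_28105_g. In 2,4-D replicate 1 the value was 0.1158 CPM for *GDU2*, 79.42 CPM for *HEC1* and 848.2 CPM for *GPX6*. In 2,4-D replicate 2 the value was 82.38 CPM for *IAGLU*. In 2,4-D replicate 3 the value was 67.66 CPM for *LHT7*, 0.3449 CPM for AT1G76980, 5.059 CPM for *ARF8* and 97.1 CPM for *DFL1*. In 2,4-D replicate 4 the value was 0.2213 CPM for AT5G38790, 58.3 CPM for *LBD37* and 509.8 CPM for *IAA29*.

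The log2 fold change at 6 HAT differed from that at 1 HAT, by the test of the difference in edgeR (adjusted p of at most 0.05), for 126 of the 181 named genes. Most named genes were picked by their values at 6 HAT, so a high share was built in. Over all 15793 genes in that test, 5.71% were called more positive and 3.79% more negative at 6 HAT. For 70 named genes the log2 fold change was more positive at 6 HAT. The difference was 13.56 for HW_33977_g, 13.06 for *CYP94C1*, 11.27 for AT5G38200, 10.41 for *GLYI7*, 9.21 for *GH3.1* (HW_8261_g), 8.67 for AT3G47680, 8.5 for *GA3OX1* (HW_38092_g), 8.35 for *TT4*, 7.05 for *OPR1* (HW_42782_g), 7.0 for AT3G60750, 6.84 for *CSLB06* and 6.32 for *TIFY10B*. It was 6.11 for *OPR1* (HW_29036_g), 5.94 for *MGL*, 5.61 for *DFL1*, 5.57 for *XTH16*, 5.51 for *RD26*, 5.4 for *JAZ6*, 5.16 for *HSP70T-2*, 4.95 for AT4G37530, 4.82 for *GSTU19* (HW_20212_g), 4.73 for AT2G17500, 4.69 for *LHT7* and 4.49 for *ETR2*. Next came 4.41 for *HB-7*, 4.01 for *TT10*, 3.99 for *PGIP1*, 3.8 for *CBL9*, 3.53 for AT4G13620, 3.36 for *IAGLU*, 3.21 for AT2G28710, 3.15 for AT1G71140, 3.15 for *CYP72A7*, 3.12 for *MYB73*, 2.92 for *CYP98A3* and 2.91 for *IAA13*. There followed 2.85 for *HEC1*, 2.8 for *GRXC1*, 2.71 for AT5G65380, 2.6 for *GPX6*, 2.57 for *UGT84A1*, 2.4 for *ATAUX2-11*, 2.35 for *HSF4*, 2.23 for *DMR6*, 2.23 for *BLH1*, 2.21 for AT4G17080, 2.19 for *NYE1* and 2.04 for *CIPK23*. Lower in order came 2.01 for *EFE* (HW_34088_g), 2.01 for *ACS6*, 2.0 for *TOC1*, 1.99 for *XTH30*, 1.91 for *ABF4*, 1.85 for *ELI3-2*, 1.8 for *IAA29*, 1.79 for *ABA2* (HW_5686_g), 1.75 for AT4G26060, 1.58 for AT5G24490, 1.58 for *EIN2* and 1.47 for *LOG3*. Then came 1.47 for *SHY2*, 1.46 for *ATAF1*, 1.42 for AT1G25550, 1.4 for *WRKY33*, 1.36 for *ERF-1*, 1.28 for *BZR1*, 1.19 for *GT72B1*, 0.99 for *ATB2*, 0.75 for *ARF19* and 0.72 for *ACT7*. HW_33977_g, AT5G38200, AT3G47680, *TT4* and *CSLB06* had 0 counts in every water library at 6 HAT. The size of their differences therefore depends on the prior count.

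For 56 named genes the log2 fold change was more negative at 6 HAT than at 1 HAT by the same test. The difference was −11.73 for *GDU2*, −8.67 for *ZFP1*, −8.09 for AT3G55240, −7.25 for AT5G38790, −6.85 for *THI1*, −6.73 for *CYP706A6*, −6.36 for *EXPB2*, −5.99 for *LHB1B1*, −5.18 for *MCM4*, −4.4 for *ABCG20*, −3.58 for *bHLH093* and −3.05 for *UGT72B3*. It was −3.03 for *RR5* (HW_46258_g), −3.0 for HW_21530_g, −2.96 for *ARF8*, −2.86 for *RR5* (HW_40511_g), −2.84 for *RAP2.7*, −2.81 for *CYP96A10*, −2.75 for *NAC036*, −2.71 for *CCoAOMT1*, −2.71 for *DWF1*, −2.51 for AT1G61660, −2.29 for *FBA2* and −2.2 for *EFE* (HW_15637_g). Next came −2.19 for *ABCB1*, −2.15 for *EXPA4*, −2.07 for *MYB48*, −2.06 for AT4G13710, −2.03 for *LHCA4*, −1.99 for *ACS10*, −1.87 for *PORA*, −1.82 for *ILR1*, −1.82 for AT4G23820, −1.74 for *HCEF1*, −1.74 for AT2G38090 and −1.71 for *FTSZ2-2*. There followed −1.6 for *LHCB2.1*, −1.52 for *RGA1*, −1.51 for *PSAE-2*, −1.51 for *FED A*, −1.48 for *ABCG39*, −1.46 for *CYP81D2*, −1.43 for *PIP2B*, −1.39 for *PRXR1*, −1.38 for *ABCC2*, −1.36 for *RPL23AB*, −1.35 for *RBCS1B* and −1.34 for *ATPD*. Lower in order came −1.18 for *EDS1*, −1.16 for *ABA2* (HW_7772_g), −1.13 for AT1G65820, −1.13 for *PSBQ-2*, −1.09 for *HPR*, −1.09 for AT1G71695, −1.08 for *PSBO2* and −1.05 for AT1G11860. *ZFP1* had 0 counts in every 2,4-D library at 6 HAT, so the size of its difference depends on the prior count.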

How the results depend on the processing

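The counts for 2,4-D against water at 6 HAT kept within 1.5 times of 1471 and 1346 under every alternative: 1843 higher and 1694 lower with DESeq2, 1236 and 1657 with upper-quartile scaling, 1208 and 963 with all 32 libraries in 1 fit, and 1162 to 1973 higher and 1039 to 1856 lower with 1 library left out. The 1500 calls of the difference between the times ranged from 1198 to 1683 with 1 of 16 libraries left out. Other counts moved more. At 1 HAT, 259 calls became 672 with DESeq2 and 136 to 352 with 1 library left out. Against dicamba, 75 became 274 with DESeq2 and 31 to 158 with 1 library left out. Against halauxifen-methyl, 1175 became 1835 with DESeq2 and 706 to 1762 with 1 library left out. The replicate numbers do not pair the plants: deviations of same-numbered water and 2,4-D libraries correlated by −0.0644 to −0.0123. With the replicate number as a block the calls were 1121 higher and 968 lower, 1320 for the difference between the times and 625 against halauxifen-methyl. Of 2857 values of the 181 named genes under the alternatives, 60 lost their call, 15 of them with all 32 libraries, and 1 changed sign, that of HW_28187_g (*JAR1*), which was not called, from 0.07 to −0.038 with upper-quartile scaling. The causes were not tested. Of 52 group medians 19 changed sign under at least 1 alternative, most of them near 0. Larger moves were those of the GH3 group (3.53 to −0.626 when only genes with 10 counts in every library were tested, a filter that leaves out genes near 0 in water), the salicylate group (0.626 to −0.142 with DESeq2), ABA synthesis (0.066 to −0.953 with all 32 libraries) and the cytokinin group (−0.446 to 0.004 without water replicate 1). The depth limits genes near 0 counts, whose fitted fold changes depend on the prior count.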

Other observations

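Some gene families that were not groups of their own above were called at shares unlike the background of 10.3% higher and 9.41% lower. They were picked by their annotation after the values were seen and so are given as counts only. These families overlap with the groups above, since *ELI3-2*, for example, was also counted in the phenylpropanoid and lignin group. Of 24 tested genes annotated as NAD(P)-linked oxidoreductases, 13 were higher after 2,4-D and 3 lower, with a median log2 fold change of 1.65. Of 6 genes with the hit to cinnamyl alcohol dehydrogenase 8, 4 were higher and 1 lower, with a median of 3.51. Of 11 genes described as indole-3-acetate glucosyltransferases, 5 were higher and 1 lower, with a median of 1.73. All 6 tested genes annotated as the photosystem I proteins PsaA or PsaB were lower, with a median of −1.8. These proteins are encoded in the plastid genome of plants, and the separate values of such near-identical genes are uncertain. The libraries were made by poly(A) selection, and how far it retains plastid transcripts was not tested. Values of these genes may therefore not measure plastid gene expression. Of 8 genes with the hit to fatty acid desaturase 2, which makes linoleic acid, 6 were lower and 1 higher, with a median of −1.07. Of 9 genes with the hit to carboxyesterase 18, 5 were lower and 0 higher, with a median of −1.35. HXXXD-type acyl-transferases, which acylate many secondary metabolites, went both ways, with 7 of 43 higher and 15 lower. Of 170 genes of the tetratricopeptide repeat family, 3 were higher (1.76%) and 15 lower (8.82%). This was below the background for higher calls and near it for lower calls.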
